A study of Mus musculus with 12 samples.

Results

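The circadian clock genes described here are 10 transcripts of the molecular clock and its direct outputs: Arntl and Npas2, Per1, Per2, Per3 and Cry1, Nr1d1 and Nr1d2, and Dbp and Tef. They were chosen by name, with earlier results of these data known, and read through every probe that the platform annotation assigns to them. All 10 were on the array, with 17 probes, and 9 of them passed the detection filter among 11933 genes tested. Cry1 was detected on 0 arrays and was not tested. Levels were measured on Illumina bead arrays in colon RNA of male mice of 7 to 8 weeks. There were 4 groups of 3 animals, called biological replicates in the labels: DAPP given before DSS, DAPP given during DSS, DSS alone, and control. DSS is dextran sulfate sodium, a polymer given to mice to injure the colon lining and cause colitis. DAPP is a preparation studied under a title on apple peel polyphenols, and the column names hold a number without a unit, 200 where DAPP preceded DSS and 400 where it was given during DSS. Timing and that number therefore cannot be told apart. The sources used here do not give the strain, the vehicle, the length of each treatment or the hour at which the colon was taken. All p-values rest only on the spread between these animals.

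The mammalian clock is a feedback loop in which the protein of Arntl, also called BMAL1, pairs with CLOCK or NPAS2 and switches on genes that carry E-boxes. The period and cryptochrome proteins are made from such genes and return to repress their own activators. The REV-ERB receptors, products of Nr1d1 and Nr1d2, close a second loop by repressing Arntl at ROR elements. DBP and TEF are transcription factors of the proline and acidic amino acid-rich family, which carry the rhythm to D-box genes. In the mouse colon, as in other organs, transcripts of this loop normally rise and fall through the day, and Per1 is also known to respond to glucocorticoids and to cAMP signalling.

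The promoter windows of the 3 genes on which the results turn are shown because each is known as a target of the loop. They come from RefSeq (GRCm38.p6), run 5′ to 3′ on the strand of the gene, and hold 300 bases around an annotated start, most of them upstream of it. Capitals mark the letters of any of 5 motifs searched on both strands: E-box CACGTG, E′-box CACGTT, D-box TTATGTAA or TTATGCAA, the AGGTCA hexamer that forms the core of ROR and REV-ERB sites, and cAMP element TGACGTCA. The windows are those of Dbp (chr7:45704997-45705296, plus strand), Per1 (chr11:69098699-69098998, plus strand, the first of 2 annotated starts) and Nr1d1 (chr11:98775328-98775627, minus strand).
Dbp: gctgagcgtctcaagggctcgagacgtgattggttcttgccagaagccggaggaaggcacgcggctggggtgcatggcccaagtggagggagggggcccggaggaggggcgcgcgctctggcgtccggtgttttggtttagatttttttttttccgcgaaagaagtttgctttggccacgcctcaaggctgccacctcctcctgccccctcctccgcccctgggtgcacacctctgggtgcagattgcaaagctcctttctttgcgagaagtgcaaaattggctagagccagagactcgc
Per1: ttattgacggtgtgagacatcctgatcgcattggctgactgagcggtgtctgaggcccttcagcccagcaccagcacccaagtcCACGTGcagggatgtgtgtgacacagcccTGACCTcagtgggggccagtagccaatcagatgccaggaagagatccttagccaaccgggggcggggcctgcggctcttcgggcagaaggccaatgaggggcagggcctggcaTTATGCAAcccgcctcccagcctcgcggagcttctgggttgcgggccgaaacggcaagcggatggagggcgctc
Nr1d1: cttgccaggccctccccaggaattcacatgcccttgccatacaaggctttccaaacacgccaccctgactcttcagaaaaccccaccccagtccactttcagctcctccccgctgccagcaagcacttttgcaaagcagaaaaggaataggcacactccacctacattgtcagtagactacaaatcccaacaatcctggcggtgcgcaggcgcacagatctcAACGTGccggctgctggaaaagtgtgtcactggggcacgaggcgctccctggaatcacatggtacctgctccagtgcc
The Per1 window held an E-box with its first base at -166, the hexamer (read as TGACCT on the printed strand) at -137 and a D-box, TTATGCAA, at -24. The Nr1d1 window held an E′-box, printed as AACGTG, at -28. The Dbp window held 0 of the motifs, which says only that these letters are not in this stretch. The window of the other Per1 start, which is not printed, also held 0 of them.

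Windows were found for 9 of the 10 genes, 12 in all, and Per2 had no entry. E-box letters were in 4 of the 12 windows (Cry1, Per1 and both starts of Tef), against 7.15% of all 32851 windows in the table. The E′-box was in 2 (Cry1 and Nr1d1), against 4.68% of all windows. D-box letters were in 2 (Per1 once and Per3 at -205 and -158), against 1.66%. The AGGTCA hexamer was in 3 (Arntl, Per1 and Nr1d2), against 16.3%, and the cAMP element was in 0, against 1.79%. No matches shared a base. The windows of Arntl overlap, so the 12 windows are not independent. These matches are letters only, and binding was not measured.

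Each array detected 17650 to 21444 probes at a detection p under 0.05. The array of DAPP before DSS replicate 1 stood apart: its correlation with the other arrays was at most 0.914, whereas each of the others reached 0.979 to 0.984 with its best match. Mean deposited signal was 601 to 728 on the arrays of the DAPP groups, against 433 to 507 on those of DSS and control. All 10 markers of the colon lining were measured, with a mean log2 level of 10.82 on the array that stood apart and 11.48 to 12.55 on the others. Mean levels of 12 exocrine pancreas genes ranged from 6.35 to 14.39 between arrays and crossed the groups. Each comparison was fitted with limma over all 11933 genes, with Benjamini-Hochberg adjustment, and a gene was called changed at an adjusted p under 0.05. The 3 comparisons with control share the same control arrays.

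Dbp was lower than control in every group that received DSS, and had the largest estimated difference of the 9 clock genes tested. Its log2 levels in replicates 1, 2 and 3 were 9.19, 10.51 and 9.61 in DAPP before DSS, 10.94, 9.99 and 9.87 in DAPP during DSS, 9.48, 10.05 and 9.95 in DSS, and 12.22, 12.14 and 12.41 in control. All 9 arrays of the DSS-treated groups lay below all 3 control arrays, and the 3 DSS-treated groups overlapped one another. In the deposited intensities, before any normalisation, Dbp read 592.5, 1702.4 and 1137.6 in DAPP before DSS, 2580.8, 1396.9 and 1258.8 in DAPP during DSS, 710.5, 970.7 and 825.2 in DSS, and 4108.9, 3898.2 and 4519.9 in control. The separation was thus already visible in the values as scanned. Transcripts of this loop vary through the day, and the hour of collection is not given. A difference in hour between groups and an effect of treatment therefore cannot be told apart. The Dbp gene lies on chromosome 7 at 45705100 to 45710203 (GRCm38.p6) and was read by 1 probe, detected on all 12 arrays.

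Dbp averaged 9.82 ± 0.31 (SD, n = 3) in DSS, against 12.25 ± 0.14 in the 3 controls, a log2 difference of -2.43 (SE 0.35, 95% interval -3.20 to -1.66, limma adjusted p = 0.00152). On the linear scale DSS held 18.6% of the control level. Dbp was the 30th largest fall of the 11933 genes in that comparison. It averaged 9.77 ± 0.67 in DAPP before DSS, a difference of -2.48 from the same controls (interval -3.26 to -1.71, limma adjusted p = 0.000988). It averaged 10.26 ± 0.58 in DAPP during DSS, a difference of -1.99 (interval -2.76 to -1.22, limma adjusted p = 0.00472). From high to low the groups ranked control, DAPP during DSS, DSS and DAPP before DSS, and only the step below control was wider than the spread of the arrays. In all 23 alternative settings Dbp remained called in the 3 comparisons with control.

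The plot of Dbp against the pancreas mean sets these levels beside transcripts of the exocrine pancreas. Some of these genes were near background on some arrays. Cel, Prss2 and Cela3b read 4.53, 4.56 and 4.80 on control replicate 2, where the lowest detected level was 5.60. Cela1 was bright on every array, at 11.15 to 14.85. DSS replicate 1 had a Dbp level of 9.48 with a pancreas mean of 6.72, and DAPP during DSS replicate 2 had 9.99 with 6.35, where the pancreas means in control were 6.63 to 8.50. All 3 arrays of DAPP before DSS, at pancreas means of 12.51 to 14.03, lay above control. With the pancreas mean as a covariate, Dbp differed from control by -2.43 in DSS, -2.48 in DAPP before DSS and -1.99 in DAPP during DSS. Markers of other tissues also differed between the groups. Mean levels of 8 smooth muscle genes were 10.27 to 10.76 in DAPP before DSS, 10.12 to 10.68 in DAPP during DSS, 9.89 to 10.44 in DSS and 11.48 to 11.65 in control, and 7 of the 8 fell in DSS against control. Of 7 neutrophil genes tested, 6 rose in DSS, with a list median of 2.58, as did 2 of 4 T cell genes and 3 of 5 macrophage genes. The 10 colon lining markers had means of 10.82 to 12.30 in DAPP before DSS, 11.98 to 12.19 in DAPP during DSS, 11.48 to 12.21 in DSS and 12.52 to 12.55 in control. Against control, 0 of them were called in DSS (list median -0.45) and 0 in DAPP during DSS (-0.17). In DAPP before DSS 1 was called lower (-0.81). Their differences in DSS ran from -2.28 (Aqp8, limma adjusted p = 0.0959) to 0.07 (Cdx2). In bulk tissue, fewer cells of a type and less RNA per cell cannot be told apart. Only the pancreas mean was entered as a covariate, and the part of the other tissue markers in the Dbp result was not tested.

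**Figure D1:**
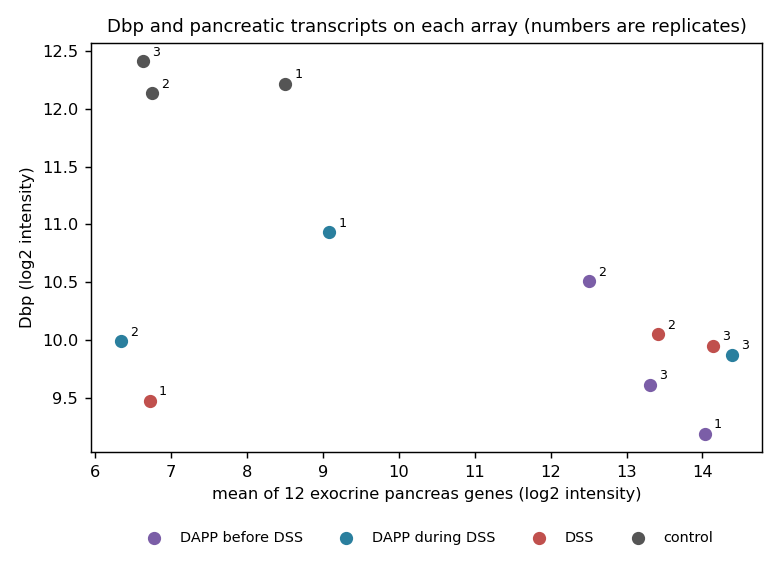
Log2 level of Dbp (vertical) against the mean log2 level of 12 exocrine pancreas genes (horizontal) on each of the 12 arrays, coloured by group, with replicate numbers. The 3 control arrays sit above 12 at pancreas means of 6.63 to 8.50, while DSS replicate 1 and DAPP during DSS replicate 2 sit below 10 at similar pancreas means.

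Tef, the other output factor, lay on the same side of control in each group without passing the test. It ranged from 8.71 to 9.79 in DAPP before DSS, 8.54 to 9.47 in DAPP during DSS, 8.92 to 9.50 in DSS and 9.73 to 10.06 in control. The arrays of DSS and of DAPP during DSS were all below control, and those of DAPP before DSS overlapped it. Differences from control were -0.78 in DSS (limma adjusted p = 0.192), -0.55 in DAPP before DSS (0.299) and -0.93 in DAPP during DSS (0.106). The limma intervals for DSS (-1.48 to -0.09) and DAPP during DSS (-1.63 to -0.24) left out 0 before adjustment over all genes. In DAPP before DSS the difference was -0.21 without replicate 3. Tef has another probe, for a further transcript, which was detected on 0 arrays.

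**Figure D2:**
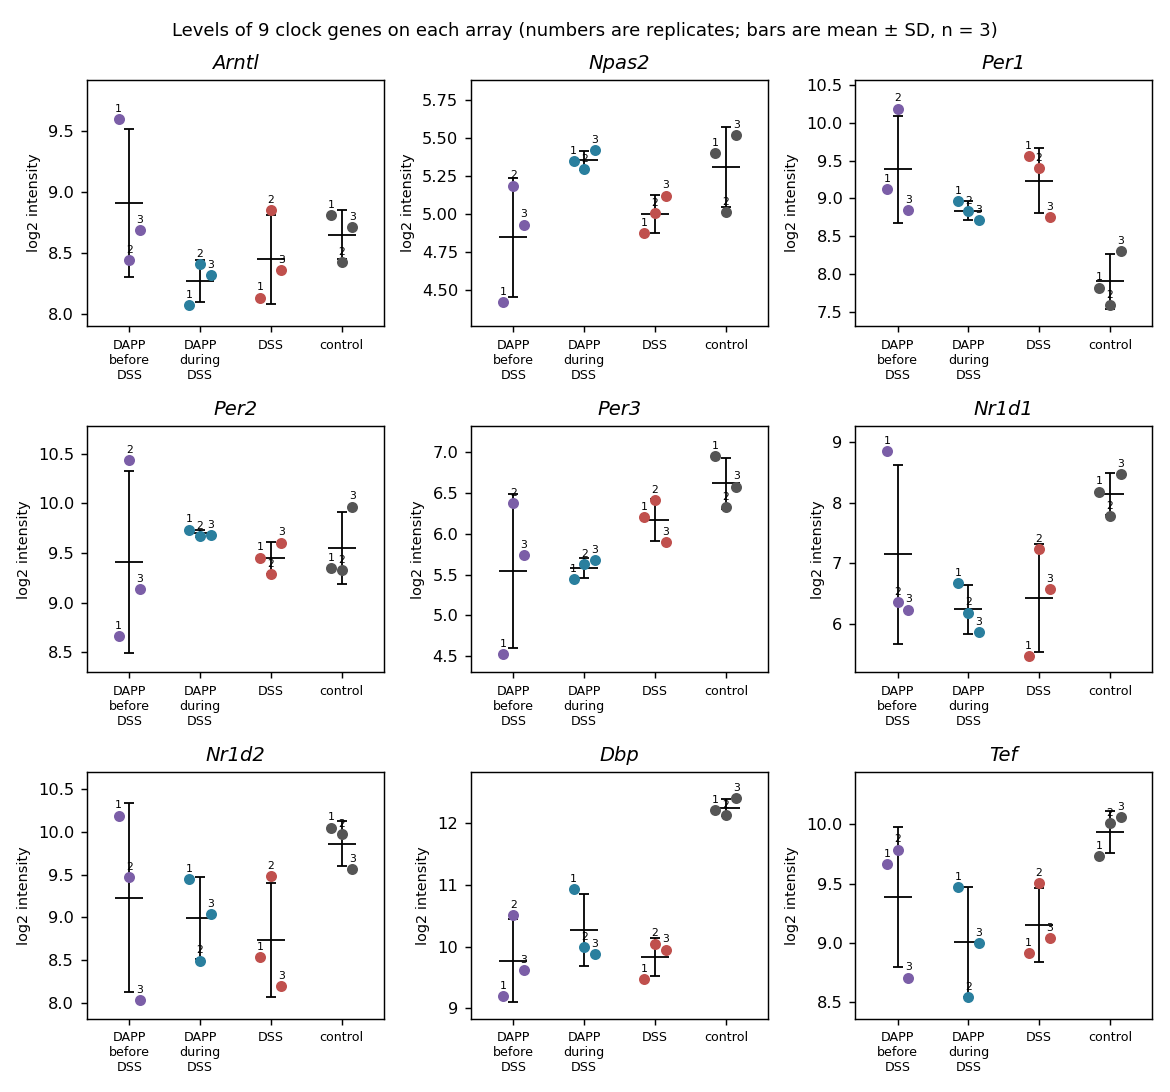
Log2 normalised intensity (vertical axes, separate scale for each gene) of the 9 tested clock genes in the 4 groups; points are arrays numbered by replicate, and bars give the mean ± SD of 3. Dbp in the 9 DSS-treated animals lies between 9.19 and 10.94, below the control arrays at 12.14 to 12.41, and Per1 lies above control on all 9.

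Among the period genes, which encode the repressors of the loop, only Per1 was called. On its brightest probe the log2 levels in replicates 1, 2 and 3 were 9.12, 10.19 and 8.85 in DAPP before DSS, 8.97, 8.83 and 8.71 in DAPP during DSS, 9.56, 9.40 and 8.75 in DSS, and 7.82, 7.59 and 8.30 in control. Every DSS-treated array exceeded every control array. With n = 3 each, Per1 averaged 9.23 ± 0.43 (SD) in DSS, against 7.90 ± 0.36 in control, a difference of 1.33 (SE 0.34, 95% interval 0.58 to 2.08, limma adjusted p = 0.0373), or 2.52-fold. In DAPP before DSS it averaged 9.39 ± 0.71 and rose by 1.48 over control (interval 0.73 to 2.23, limma adjusted p = 0.0159). The difference of 0.93 in DAPP during DSS (interval 0.18 to 1.68) did not pass the test over all genes (limma adjusted p = 0.134). It passed in 3 of 23 alternative settings, one of which, equal array medians, gave 1.43 (adjusted p = 0.0191) with the median of all genes at 0.38.

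The Per1 call rested on one of its probes. A further probe of the same transcript, detected on all 12 arrays, read 7.67, 8.41 and 7.07 in DAPP before DSS, 7.14, 7.03 and 6.81 in DAPP during DSS, 7.74, 7.53 and 6.89 in DSS, and 6.94, 7.15 and 6.96 in control. On this probe the differences from control were 0.37 in DSS, 0.70 in DAPP before DSS and -0.03 in DAPP during DSS (limma adjusted p over 22359 probes 0.660, 0.216 and 0.981), and all 3 groups overlapped control. The brightest probe passed in the same probe-level fit, at an adjusted p of 0.0492 in DSS and 0.0212 in DAPP before DSS. Another probe, for a cDNA clone assigned to Per1, was detected on 1 array only, DAPP before DSS replicate 1, at 7.29 against 4.59 to 5.04 on the others. With the mean of the kept probes the difference in DSS became 0.85 (limma adjusted p = 0.155). Of all probes tested, 4.7% were called in DSS, 8.12% in DAPP before DSS and 5.59% in DAPP during DSS.

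The DSS call of Per1 was also close to the threshold, being lost in 12 of 23 alternative settings. Leaving out 1 array took the limma adjusted p to 0.118, 0.146 and 0.0512 without control replicates 1, 2 and 3, to 0.150 and 0.103 without DSS replicates 1 and 2, and to 0.0548, 0.0596 and 0.0568 without DAPP during DSS replicates 1, 2 and 3. The difference itself stayed between 0.85 and 1.58. In DAPP before DSS the call held in 20 of 23 settings, with adjusted p-values of 0.0585 and 0.0712 without control replicates 1 and 2.

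**Figure D3:**
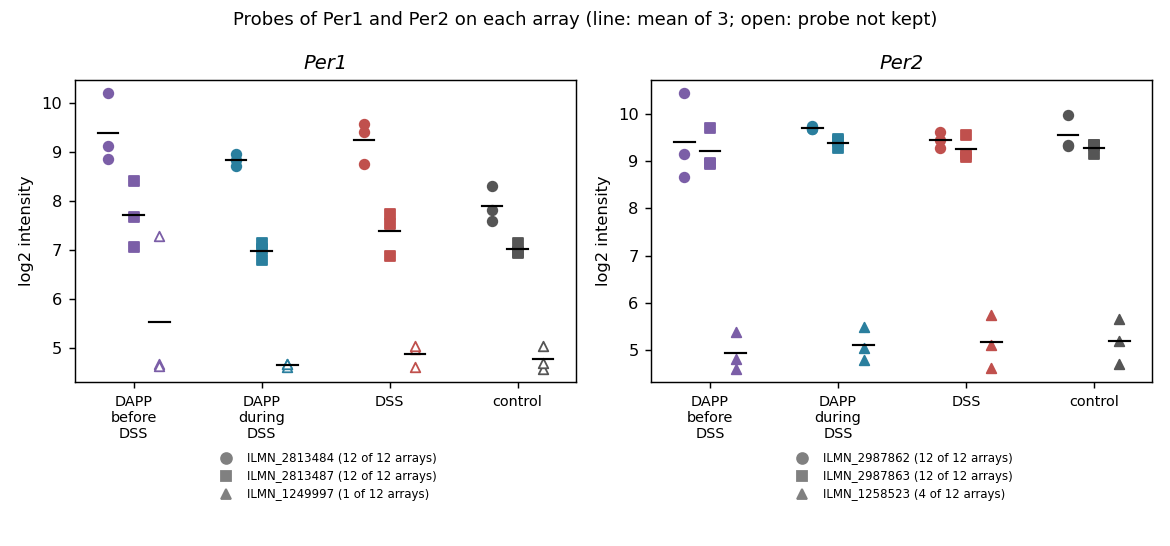
Log2 intensity (vertical) of each probe of Per1 (left) and Per2 (right) on every array in the 4 groups; horizontal lines are means of 3, open symbols mark the probe that did not pass the detection filter. The brightest Per1 probe separates the DSS-treated groups from control, the next Per1 probe does not, and no Per2 probe separates a DSS-treated group from control.

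Per2, a second period repressor, was not called in any comparison. Its arrays spanned 8.66 to 10.43 in DAPP before DSS, 9.67 to 9.74 in DAPP during DSS, 9.29 to 9.61 in DSS and 9.33 to 9.97 in control. The groups overlapped control in each comparison, with differences of -0.14 in DAPP before DSS, 0.15 in DAPP during DSS and -0.10 in DSS. The 95% interval in DSS ran from -0.90 to 0.70. The other kept probes of Per2 gave -0.03 each in DSS.

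Per3, the third period gene, was dim. It spanned 4.52 to 6.37 in DAPP before DSS, where replicate 1 was not detected, 5.44 to 5.68 in DAPP during DSS, 5.90 to 6.41 in DSS and 6.32 to 6.95 in control. Its differences from control were -1.07 in DAPP before DSS, -1.03 in DAPP during DSS and -0.45 in DSS (limma adjusted p = 0.0933, 0.131 and 0.599). A further kept probe, annotated to a cDNA clone, gave -0.25, -0.23 and -0.23 in the same order. The first difference was -0.56 (limma adjusted p = 0.180) without DAPP before DSS replicate 1, the undetected array, and -1.49 (0.0172) without replicate 2. The second, which does not include those arrays, passed the test without replicate 1 at an adjusted p of 0.0118. Over all 11933 genes, 1722 were called in that comparison without replicate 1, against 917 with it.

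Cry1, the cryptochrome of the set, gave deposited intensities of 135.9 to 152.8 in DAPP before DSS, 132.5 to 145.1 in DAPP during DSS, 101.1 to 128.4 in DSS and 107.4 to 135.6 in control. Its only probe was not distinguished from background on any array, so no direction is given for it.

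The REV-ERB genes encode the receptors of the second loop. Nr1d1 is singled out after its values were seen, because leaving out 1 array changed its calls. It read 8.84, 6.36 and 6.24 in DAPP before DSS, 6.67, 6.19 and 5.87 in DAPP during DSS, 5.47 (not detected), 7.24 and 6.58 in DSS, and 8.18, 7.78 and 8.46 in control. Of the 9 DSS-treated arrays, 8 were below all controls, and DAPP before DSS replicate 1 was above them. Nr1d1 differed from control by -1.71 in DSS (SE 0.62, 95% interval -3.06 to -0.36, limma adjusted p = 0.140), by -0.99 in DAPP before DSS (0.336) and by -1.90 in DAPP during DSS (0.0909), and was not called in any of them.

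Without DAPP before DSS replicate 1, Nr1d1 was called in all 3 comparisons with control. The differences were then -1.71 in DSS, -1.84 in DAPP before DSS and -1.90 in DAPP during DSS, with limma adjusted p-values of 0.0137, 0.0178 and 0.00779. For DSS and DAPP during DSS the difference is the same with and without that array, since it enters only through the shared estimate of the spread. Weighting the arrays by their scatter gave adjusted p-values of 0.0128, 0.0207 and 0.000506 in the same order. Calls over all 11933 genes rose as well. Without that array they numbered 1523, 1543 and 1722 in the same order, against 801, 1338 and 917 with it. With array weights they numbered 1479, 1738 and 3392. Gaining a call in these settings was therefore not particular to Nr1d1. The size of the Nr1d1 difference also moved with the processing. In the settings that left out no single array it ran from -2.10 to -0.93 in DSS. It ran from -1.66 to -0.51 in DAPP before DSS and from -2.14 to -1.04 in DAPP during DSS.

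Nr1d2 spanned 8.03 to 10.19 in DAPP before DSS, 8.50 to 9.45 in DAPP during DSS, 8.20 to 9.48 in DSS and 9.56 to 10.05 in control. All arrays of DSS and DAPP during DSS were below control. The differences were -1.12 in DSS, -0.63 in DAPP before DSS and -0.87 in DAPP during DSS, with limma adjusted p-values of 0.229, 0.449 and 0.360. In DAPP before DSS, replicate 1 again gave the highest level of the group, at 10.19, above every control. The difference there was -1.11 without replicate 1 and -0.03 without replicate 3. A further Nr1d2 probe was detected on 1 array and was not used.

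Arntl, the activator that the REV-ERB receptors repress, read 9.60, 8.45 and 8.69 in DAPP before DSS, 8.08, 8.41 and 8.32 in DAPP during DSS, 8.14, 8.85 and 8.36 in DSS, and 8.82, 8.43 and 8.71 in control. DAPP before DSS replicate 1 had its highest level. Its mean was 8.45 ± 0.37 (SD, n = 3) in DSS, against 8.65 ± 0.20 in the 3 controls, a difference of -0.20 (95% interval -0.85 to 0.45, limma adjusted p = 0.794). The differences in DAPP before DSS (0.26, adjusted p = 0.625) and DAPP during DSS (-0.38, adjusted p = 0.532) did not pass the limma test either, although the arrays of DAPP during DSS all lay just below control. Without DAPP before DSS replicate 1 the first of these was -0.08.

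Npas2, the CLOCK-like partner of BMAL1, was close to background. It was detected on 0 arrays of DAPP before DSS, 3 of DAPP during DSS, 0 of DSS and 1 of control, at levels of 4.42 to 5.19, 5.29 to 5.42, 4.88 to 5.12 and 5.02 to 5.52 in that order. It was not called by limma in any comparison. These levels lie near the lowest detected signal of the arrays, 5.18 to 5.70, so they bound rather than measure the gene.

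**Figure D4:**
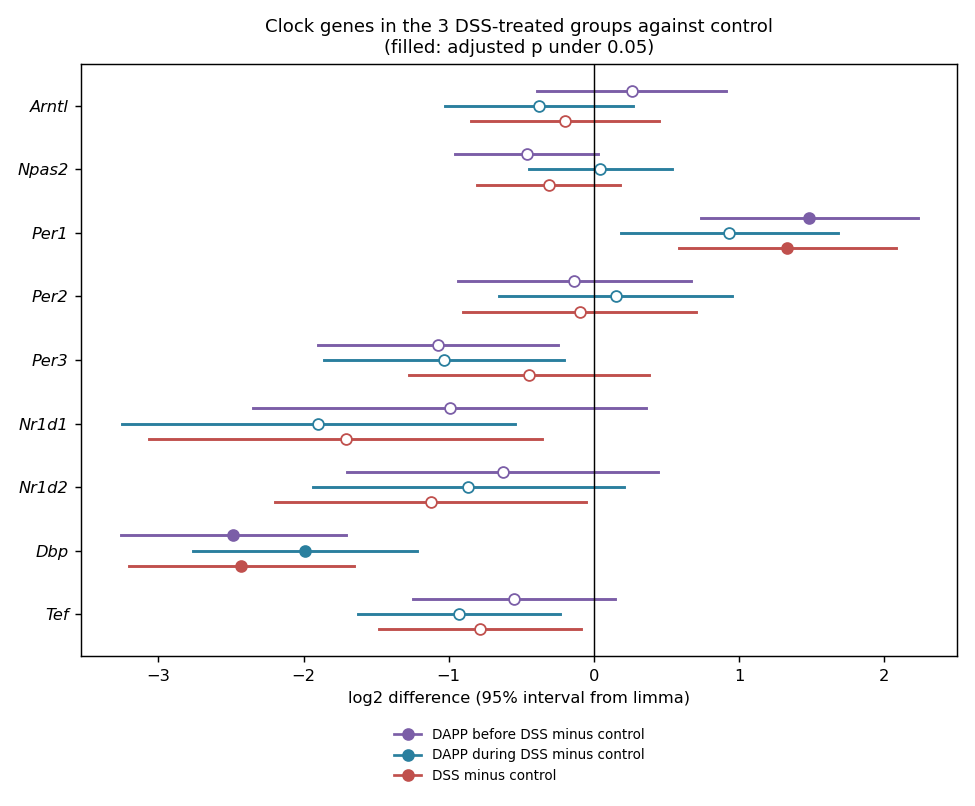
Log2 difference from control (horizontal) of the 9 tested clock genes in DAPP before DSS, DAPP during DSS and DSS; points are limma estimates, lines 95% intervals, and filled points have an adjusted p under 0.05 over 11933 genes. Dbp is filled in all 3 comparisons, at -2.48, -1.99 and -2.43, and Per1 in DAPP before DSS and DSS, at 1.48 and 1.33.

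In all, DSS against control called 1 of the 9 clock genes higher (Per1) and 1 lower (Dbp), where 3.91% of all genes tested were higher and 2.81% lower. DAPP before DSS against control called the same genes, 1 higher and 1 lower, where 6.27% of all genes were higher and 4.94% lower. DAPP during DSS against control called 0 higher and 1 lower (Dbp), where 4.53% were higher and 3.15% lower. The median log2 difference over the 9 genes was -0.55 in DAPP before DSS, -0.87 in DAPP during DSS and -0.45 in DSS, against -0.05, -0.03 and -0.04 over all genes. Arrays did not overlap control for 2 of the 9 genes in DAPP before DSS, 7 in DAPP during DSS and 5 in DSS. The corresponding shares of all genes were 29.2%, 40.8% and 30.5%. With so few genes, 1 gene moves such a share by a large step, and the counts are given as a description. The genes were chosen with earlier results of these data known. The hour at which the colon was taken is not given, and its part in these differences was not tested.

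Setting the DAPP groups against DSS asks whether DAPP moved the clock genes from their level in colitis. In these comparisons 0 of the 9 clock genes were called, as were 0% of all genes (DAPP before DSS against DSS, DAPP during DSS against DSS, and the DAPP groups against each other). Arrays did not overlap for 0 of the 9 genes in the first comparison, 3 in the second (Per2 higher and Per3 lower in DAPP during DSS, and Npas2) and 2 in the third (Arntl and Npas2). Npas2 has no settled direction in either, because it was detected in DAPP during DSS and on 0 arrays of DSS or DAPP before DSS, and it passed the filter through that group. Over all genes those shares were 6.48%, 11.3% and 7.9%.

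The intervals give the range of DAPP differences that these arrays leave possible. For Dbp the difference from DSS was -0.05 in DAPP before DSS (95% interval -0.83 to 0.72) and 0.44 in DAPP during DSS (-0.33 to 1.21). Both upper bounds are smaller in size than the difference of -2.43 between DSS and control, which shares the DSS arrays. For Per1 the differences were 0.15 in DAPP before DSS (-0.60 to 0.90) and -0.40 in DAPP during DSS (-1.15 to 0.35). Nr1d1 had the widest intervals, at 0.72 in DAPP before DSS (-0.64 to 2.07) and -0.19 in DAPP during DSS (-1.54 to 1.16). Without DAPP before DSS replicate 1 its difference of 0.72 turned to -0.13, and that of Dbp in the same comparison was 0.24. The Per1 difference of 0.15 turned to -0.25 without DAPP before DSS replicate 2.

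Between DAPP before DSS and DAPP during DSS, Arntl was 0.64 higher in DAPP before DSS (95% interval -0.01 to 1.29), and its arrays did not overlap. Without DAPP before DSS replicate 1 this difference was 0.30. Npas2 is not compared here, since 0 of its DAPP before DSS arrays were above background. Dbp was lower by 0.49 in DAPP before DSS, with overlapping arrays.

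**Figure D5:**
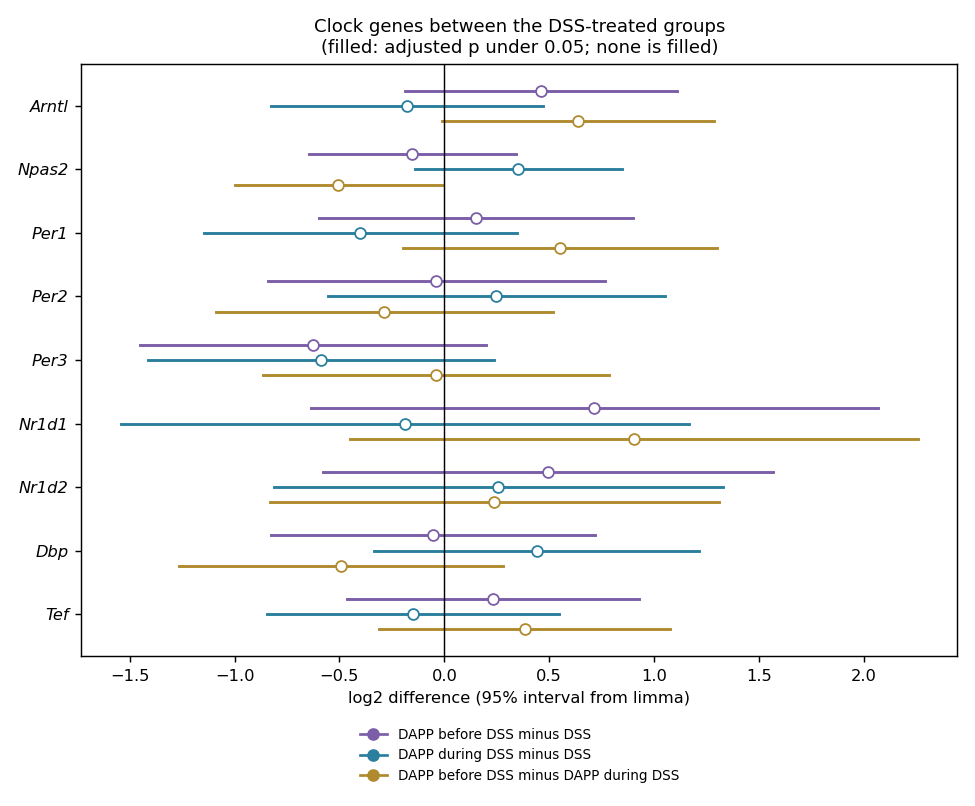
Log2 differences (horizontal) of the 9 tested clock genes between the DSS-treated groups: DAPP before DSS minus DSS, DAPP during DSS minus DSS, and DAPP before DSS minus DAPP during DSS; points are limma estimates and lines 95% intervals. No gene passes an adjusted p of 0.05, and the widest intervals are those of Nr1d1.

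Whether clock genes varied together between animals was examined after each group's mean was taken away, over all 36 pairs of the 9 tested genes and 12 arrays. By exact permutation within groups (two-sided, every arrangement), 0 pairs had an adjusted p under 0.05, and the smallest adjusted p was 0.417. The highest correlation joined Arntl and its repressor Nr1d1 (Pearson r 0.86, exact permutation p = 0.0347, Spearman rho 0.76, exact permutation p = 0.0417). It was 0.69 without the 2 arrays farthest from the median of Arntl, DAPP before DSS replicates 1 and 2, with the group means left as they were. It was 0.61 without DAPP before DSS replicate 1, where the group means were taken again. Nr1d2 and Tef followed, with r 0.83 (exact permutation p = 0.0255, rho 0.78 with p = 0.0340). In the same ways it was 0.74 without the 2 arrays farthest from the median of Nr1d2 and 0.85 without DAPP before DSS replicate 1. Arntl and Dbp had r -0.47 (exact permutation p = 0.349, rho -0.24 with p = 0.587), which moved to -0.11 without that array. The sign of 13 of the 36 correlations turned when it was left out.

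Over the same residual levels, the genes most like Dbp were Fhl1 (r 0.96), Synj2 (0.96) and Clcn2 (0.96), and those most like Arntl were Orc5 (0.97), Setd3 (0.96) and Klk1b21 (0.96), each over 12 arrays. They are the top of a ranking of all tested genes and carry no p. None of these 6 genes was called in DSS against control, where Fhl1 differed by -0.87 and Synj2 by -0.04.

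Beyond the 10, 41 further genes of the clock were listed, of which 36 were on the array and 28 were tested. The others are not analysed here. In DSS against control 1 of the 28 rose and 0 fell, with a list median of -0.14, where 3.91% of all genes rose and 2.81% fell. In DAPP before DSS 2 rose and 1 fell, where the shares over all genes were 6.27% and 4.94%. In DAPP during DSS 1 rose and 0 fell, where they were 4.53% and 3.15%, and between the DSS-treated groups 0 were called. Counts this small in a list of 28 lie near those shares. Of 5 tested genes of the core loop (Clock, Cry2, Rora, Bhlhe40 and Ciart), 0 were called in DSS. None of the 7 kinases and ubiquitin ligases that control the stability of clock proteins was called by limma in any of the 6 comparisons.

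The gene that rose in every DSS-treated group was Tspan4, a tetraspanin listed among 7 tested rhythmic outputs. It averaged 9.03 ± 0.35 in DAPP before DSS, 9.07 ± 0.47 in DAPP during DSS, 9.06 ± 0.53 in DSS and 7.15 ± 0.38 in the control group (SD, n = 3 in every group). Its differences from control were 1.88, 1.92 and 1.91, with limma adjusted p-values of 0.00362, 0.00395 and 0.00439. With the mean of its kept probes in place of the brightest they were 0.51, 0.55 and 0.65 and no longer passed the test.

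Clock and Timeless, named after their values were seen, were the other genes called, both against control in DAPP before DSS. Clock, the partner of BMAL1, averaged 10.16 ± 0.16 in DAPP before DSS and 11.17 ± 0.16 in control (SD, n = 3 each), a difference of -1.01 (SE 0.19, limma adjusted p = 0.00531). It was -1.02 without DAPP before DSS replicate 1, and was not called with the mean of its kept probes (-0.81, adjusted p = 0.0666) or with the pancreas mean as a covariate (-0.96, adjusted p = 0.0676). Clock differed from control by -0.52 in DSS and -0.54 in DAPP during DSS (limma adjusted p = 0.147 and 0.115), being called in DAPP during DSS in 3 of 23 alternative settings, and its difference between DAPP before DSS and DSS, -0.49, was not called (0.851). Timeless, a replication fork protein that binds clock proteins, averaged 8.13 ± 0.53 in DAPP before DSS and 7.13 ± 0.33 in control, a difference of 1.00 (limma adjusted p = 0.0472). That call was lost in 16 of 23 alternative settings, among them the one without DAPP before DSS replicate 1, at 0.81 (adjusted p = 0.102). In DAPP during DSS Timeless differed from control by 0.92 (limma adjusted p = 0.0815, called in 5 of 23 settings), and the DAPP groups differed by 0.08 (adjusted p = 0.953).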

How the data were processed

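RNA from 12 colon samples was hybridised to Illumina bead arrays, 3 in each of 4 groups taken from the treatment labels. The deposited table gives 45281 probes, each with an intensity on a linear scale and a detection p-value (both named so per the file headers). A further 1949 lines were blank. The authors summarised the arrays in GenomeStudio, per the submitters' processing notes, of a version not stated in the sources used here. Their processed intensities were used as an alternative.

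Intensities were background-corrected, quantile-normalised and put on the log2 scale with neqc in limma 3.58.1 (R 4.3.3, offset 16). Probes with a detection p under 0.05 on at least 3 arrays were kept, 22359 in all. Genes were named through the platform annotation, updated by Entrez identifier to GRCm38.p6, and each of the 11933 was represented by its brightest kept probe. A linear model with 4 groups was fitted (8 residual and 3.95 prior degrees of freedom), with Benjamini-Hochberg adjustment over all genes, and again over all kept probes. The fit was tested on simulated data. The number of arrays, 3 a group, limits the precision. Bead arrays give no read depth.

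The members and gene lists were chosen with earlier results of these data known. Members are named in every comparison. Other clock genes are named where called in DSS against control or in a DAPP group against DSS, exceptions being marked, with the 3 genes most like Dbp and Arntl by correlation. Alternatives were no background correction, an offset of 50, the authors' values, equal medians, no or a stricter detection filter, the mean of kept probes, a replicate block, array weights, a pancreas covariate, the 2 compared groups alone, and each array left out.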

Additional observations from a re-analysis of the deposited data

How the results depend on the processing

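Over the 9 tested genes and 6 comparisons, 1191 of 1224 alternative values kept their side of the threshold, 18 newly passed it, 15 no longer passed it, and 0 reversed while called. Most of these values belong to results that were not called in the main fit, so the pooled share says little about the calls. Dbp kept its calls against control in all 23 settings. Per1 lost its call in 12 of 23 settings in DSS and in 3 of 23 in DAPP before DSS. The number of clock genes called in DSS against control, 2, was 1 with no background correction, with the authors' values, with no detection filter and with the mean of kept probes, 3 with array weights and with the 2 groups alone, and 1 to 3 when an array was left out. In DAPP before DSS against control it was 2, then 1 with the 2 groups alone, 3 with array weights and 1 to 3 with an array left out. In DAPP during DSS against control it was 1, then 2 with equal medians, 6 with array weights, 5 with the 2 groups alone and 1 to 3 with an array left out. It was 0 between the DSS-treated groups in every alternative run. Calls over all genes moved in the same settings: with array weights they numbered 1479 in DSS, 1738 in DAPP before DSS and 3392 in DAPP during DSS, with the 2 groups alone 1023, 746 and 2352, and with equal medians 1710 in DAPP during DSS. The cause was not tested. With equal medians in place of quantiles, the median of all genes lay at 0.13 in DAPP before DSS and 0.38 in DAPP during DSS against control, so log2 differences there are read relative to it.

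Replicate numbers gave no sign of pairing the samples. Over 18 same-numbered pairs, deviations correlated at 0.03 on average (-0.32 to 0.40), against -0.02 over 36 pairs with other numbers. Of 12 arrays, 3 matched best with their own number. With 3 arrays a group, these values cannot settle whether the numbers mark a pairing. With a replicate block the counts were 2 in DSS, 2 in DAPP before DSS and 1 in DAPP during DSS against control, and 0 elsewhere. Over all genes the count was 801 in DSS (429 to 1523 across alternatives), 1338 in DAPP before DSS (713 to 1738), 917 in DAPP during DSS (443 to 3392) and 0 (0 to 1) between the DAPP groups. Cry1, Npas2 and the dim probes of Per2 and Per3 lie at or near background, which limits what their differences can show.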
